A study of Mus musculus with 12 samples.

Results

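The genes described here are 10 genes whose products are the usual readouts and regulators of the epithelial to mesenchymal transition: Fn1, Vim, Tagln, Acta2, Cdh1, Cdh2, Snai1, Snai2, Zeb1 and Twist1. They were chosen by symbol. Every non-control probe whose design accession mapped to one of these symbols was taken, which gave 15 of the 41174 probes and 10 of the 32678 genes on the array. Fn1 and Acta2 had 3 probes each, Tagln had 2, and the other genes had 1 each. RNA of 12 mouse colonies was measured, 4 per genotype: double null colonies lacking Bmi1 and Ink4a/Arf, Bmi1 null colonies, and wild-type (WT) colonies. Each replicate was a single colony grown in culture from dental epithelium of the labial cervical loop, the stem cell region at the base of the continuously growing mouse incisor. All animals had a mixed genetic background. Bmi1 encodes a subunit of a Polycomb repressive complex, and Ink4a/Arf (gene Cdkn2a) encodes inhibitors of the cell cycle. How and in which cells the genes were deleted, the age of the animals and their number were not stated in the labels. The p-values below therefore measure the spread between colonies. Precision is limited by having 4 arrays per genotype. The WT replicates are numbered 1, 3, 4 and 5 in the labels and the mutant replicates 1 to 4, and values are given in that order.

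In an epithelial to mesenchymal transition, cells give up E-cadherin junctions and keratin-based architecture and take on vimentin filaments, a fibronectin matrix and actin stress fibres. Transcription factors of the Snail, Zeb and Twist families bind E-box motifs and repress Cdh1 in many epithelia, and TGF-beta is the best known inducer. The program is often partial. Basal epithelial cells that migrate over a culture dish or close a wound can express fibronectin and contractile proteins while they keep E-cadherin, and Snai2 is a normal gene of basal epithelial layers.

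Promoter windows from 250 bases before to 50 bases after the start site were matched for 4 of the 10 genes (Vim, Acta2, Snai1 and Twist1) in RefSeq sequence of build GRCm38.p6. The windows of Acta2 and Snai1 are shown because each holds a motif of a regulator of the genes described below. The Acta2 window is chr19:34255324-34255623 on the minus strand, and its capitals mark CArG boxes, the motif of serum response factor, that have 1 G or C in their A/T core. The start site that the table uses for Acta2 lies inside the gene range given for it further on, so most of its window does too. The Snai1 window is chr2:167537945-167538244 on the plus strand, and its capitals mark the E-box CACCTG, the form that Snail proteins bind. Both run 5' to 3' along the gene.
Acta2: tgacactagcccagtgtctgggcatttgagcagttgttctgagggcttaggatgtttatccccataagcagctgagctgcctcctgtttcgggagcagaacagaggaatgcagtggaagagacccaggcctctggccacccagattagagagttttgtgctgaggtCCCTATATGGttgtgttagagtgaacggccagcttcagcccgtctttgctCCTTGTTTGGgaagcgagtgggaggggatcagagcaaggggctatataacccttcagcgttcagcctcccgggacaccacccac
Snai1: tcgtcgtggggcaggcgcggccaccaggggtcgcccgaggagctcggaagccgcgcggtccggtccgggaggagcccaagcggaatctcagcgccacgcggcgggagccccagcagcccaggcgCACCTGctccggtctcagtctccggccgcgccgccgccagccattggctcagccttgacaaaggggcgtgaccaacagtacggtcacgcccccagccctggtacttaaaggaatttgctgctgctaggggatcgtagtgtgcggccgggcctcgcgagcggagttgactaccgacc
In the Acta2 window the CArG boxes were CCCTATATGG and CCTTGTTTGG, whose first bases lay at -84 and -34 from the start site. The same window held 3 E-boxes CANNTG, at -228, -220 and -182. The CACCTG of the Snai1 window lay at -126 and is also a CANNTG match. Searched on both strands, CANNTG occurred in 72.3% of all 32851 promoter windows of the table, CACCTG in 20.2%, a CArG box with 1 G or C in its core in 8.5% and a CArG box without one in 1.63%. None of these motifs was found in the Vim and Twist1 windows. A match is a description of the letters and not evidence of binding.

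A level below is the log2 of a spot's background-subtracted signal minus the log2 of the 75th percentile of its array, averaged over the spots of a probe. A gene with several probes is represented by the probe with the highest mean level. Levels of different probes cannot be set against each other, so each gene is compared only with itself across colonies. Differences were tested with limma over 31064 genes, with Benjamini-Hochberg adjustment over all of them, and a gene is called changed where the adjusted p is under 0.05. Errors of a log2 difference are standard errors, errors of a mean level are SD, and n = 4 colonies per genotype throughout. A level measured in a whole colony cannot tell fewer cells that express a gene from less RNA per cell. Arrays were assigned to slides by the barcode in the file headers, as the labels name none. Slide 1 held WT and Bmi1 null replicates 1 and 4. Slide 2 held WT replicate 3, Bmi1 null replicate 2 and double null replicate 3. Slide 3 held WT replicate 5 and slide 5 double null replicate 2, each alone. Slide 4 held Bmi1 null replicate 3 and double null replicates 1 and 4. Double null and WT shared slide 2 only, so slide can hardly be told apart from genotype in that comparison.

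The arrays of WT colonies had a narrower spread of signal. The interquartile range of log2 signal was 4.04 to 4.93 in double null colonies, 4.32 to 4.69 in Bmi1 null colonies and 2.49 to 2.62 in WT colonies. Spots well above background made up 74.8% to 87.6% of an array in double null colonies, 77.2% to 84.4% in Bmi1 null colonies and 90.7% to 96.9% in WT colonies. The median log2 difference of all genes was far from 0 in the comparisons with WT, at -1.41 for double null and -1.24 for Bmi1 null colonies, and it was -0.07 between the mutants. With the array median in place of the 75th percentile it was -0.38 for double null and -0.31 for Bmi1 null against WT. Values relative to the median of all genes are given beside the tests for this reason. Bmi1 was at -2.79 to -2.32 in double null and -2.46 to -2.14 in Bmi1 null colonies, against -0.89 to 0.18 in WT colonies, and its probe stayed well above background in all 12. Cdkn2a was not well above background on any double null array, was above it on all 4 Bmi1 null arrays at -4.45 to -3.96, and was not above it on any WT array. Whether these probes lie inside the deleted parts is unknown. All 9 markers of dental epithelium, among them Krt5, Krt14 and Trp63, were well above background on every array.

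Relative to WT, both mutants had higher Fn1, Vim, Acta2, Cdh1 and Snai2 by their brightest probes, and lower Cdh2, Snai1 and Zeb1. Set against the median of all genes, Cdh2 was at only -0.86 in double null and -0.35 in Bmi1 null colonies, and Zeb1 at -0.37 and -0.19. With median scaling neither Cdh2 nor Zeb1 was called in Bmi1 null colonies. Tagln was higher by its brighter probe and lower by its other probe. In the authors' value table Acta2 was not called in Bmi1 null colonies by its brightest probe, and of the lower genes Zeb1 alone was called. Fn1 and Vim, of the mesenchymal state, were higher together with Cdh1, the gene of E-cadherin. Double null colonies differed from WT in 9 of the 10 genes, 6 higher and 3 lower, against 85.5% of all genes called, 25.5% higher and 59.9% lower. Bmi1 null colonies also differed from WT in 9 of the 10, 6 higher and 3 lower, against 83.5% of all genes called, 25.2% higher and 58.3% lower. Between double null and Bmi1 null colonies 1 gene was called, Tagln, which was higher in double null colonies, where 7.56% of all genes were called, 2.75% higher and 4.8% lower. No member was called lower there by limma, and at an unadjusted p under 0.05 the counts were 2 higher and 2 lower. The comparisons with WT share the WT colonies, so they are not independent of each other.

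The median log2 difference of the 10 genes was 1.48 for double null against WT, where the median of all genes was -1.41, and 1.26 for Bmi1 null against WT, where it was -1.24. Between the mutants the median of the 10 was -0.15 beside -0.07 for all genes. In each comparison with WT, 7 of the 10 genes lay above the median of all genes and 3 lay below it. The colonies of the 2 genotypes did not overlap for 9 genes in double null against WT, as for 81.5% of all genes, for 8 genes in Bmi1 null against WT, as for 80.1%, and for 3 genes between the mutants, as for 13.8%. Of all genes called in double null against WT 29.9% were higher, and this share was 46.4% in the authors' value table, 46.1% with median scaling and 46.5% after quantile normalization. In Bmi1 null against WT the share was 30.1%, and it was 46.4% in that table, 46.9% with median scaling and 46.6% after quantile normalization. Between the mutants it was 36.4%, with 45.7% under median scaling, 48.6% in the authors' value table and 56.5% with another background correction (normexp). Calls of the 10 genes that end under such an alternative are named with each gene.

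**Figure D1:**
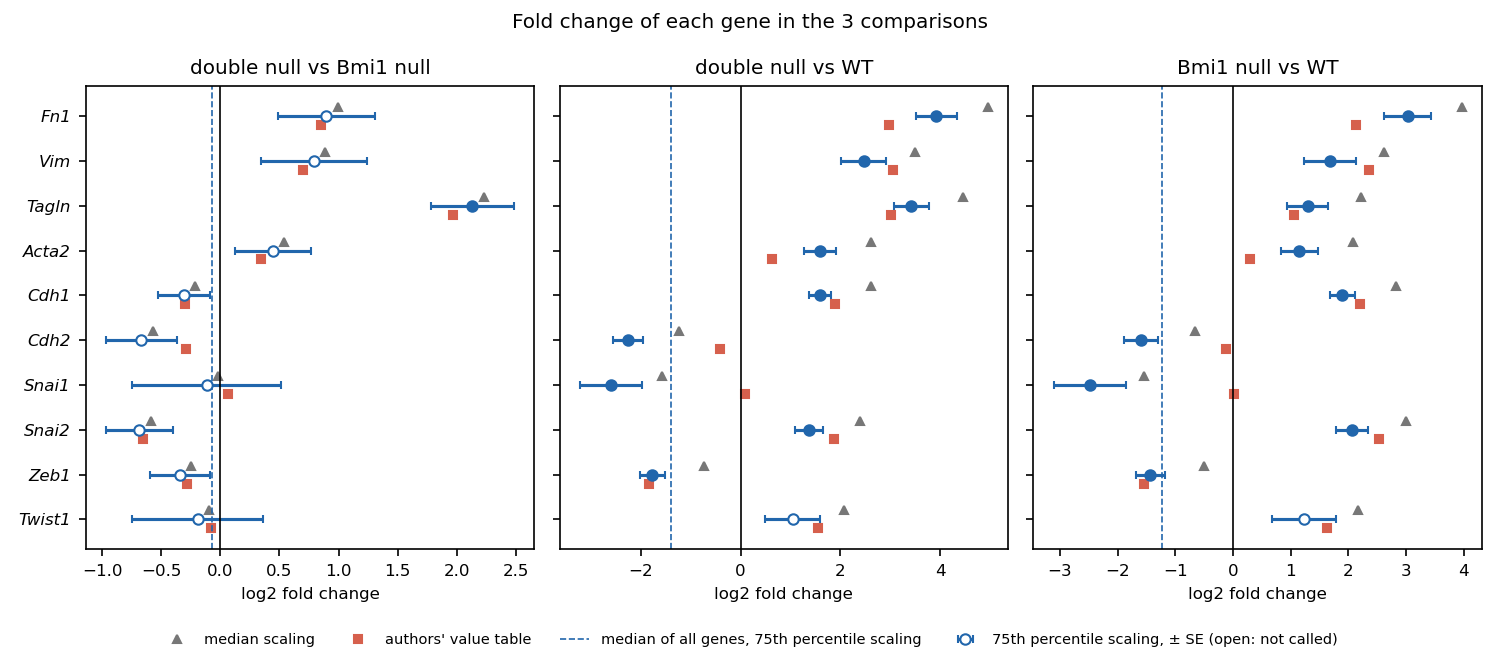
Log2 fold change of the 10 genes (x axis) in the 3 comparisons, with 75th percentile scaling (circles with standard errors, open where not called), median scaling (triangles) and the authors' value table (squares); the dashed line is the median of all genes. Tagln is the filled circle between the mutants at 2.13, and Cdh2, Snai1 and Zeb1 lie left of 0 against WT with 75th percentile scaling, where Snai1 is near 0 in the authors' value table.

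Fn1 (chr1:71585473-71653280, positions in GRCm38.p6) encodes fibronectin, the matrix protein that integrins assemble into fibrils. Its level was 5.57, 6.17, 5.82 and 5.56 in the double null colonies, 4.11, 5.49, 5.32 and 4.6 in the Bmi1 null colonies, and 0.98, 1.31, 2.32 and 2.79 in the WT colonies. The genotypes did not overlap in any pair, with every double null colony above every Bmi1 null colony and every Bmi1 null colony above every WT colony. Against WT the log2 fold change was 3.93 ± 0.41 in double null colonies (15.2-fold, adjusted p = 1.92e-06) and 3.03 ± 0.41 in Bmi1 null colonies (8.19-fold, adjusted p = 1.85e-05), or 5.34 and 4.27 above the median of all genes. Double null minus Bmi1 null was 0.90 ± 0.41, with a 95% interval of 0.02 to 1.78 and an adjusted p of 0.22, which is not a call. Within the slides that held both mutants this difference was 0.32 and 0.24.

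Vim (chr2:13574311-13582826) encodes vimentin, the intermediate filament protein of mesenchymal cells. Its level was 1.71, 0.85, 1.04 and 2.08 in double null colonies, 1.27, -0.38, 1.40 and 0.24 in Bmi1 null colonies, and -1.83, -0.20, -1.21 and -0.96 in WT colonies. Double null colonies lay above every WT colony, while Bmi1 null replicate 2 lay below the highest WT colony, so that the Bmi1 null and WT ranges overlapped. Vim rose 5.54-fold in double null against WT (log2 2.47 ± 0.45, adjusted p = 0.000204) and 3.20-fold in Bmi1 null against WT (log2 1.68 ± 0.45, adjusted p = 0.0037). Within slide 1 Bmi1 null minus WT was 2.28, and within slide 2, which held Bmi1 null replicate 2 and 1 WT array, it was -0.19. The mutants differed by 0.79 ± 0.45 (95% interval -0.18 to 1.76, adjusted p = 0.338).

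Tagln (chr9:45929628-45936058) encodes transgelin, an actin-bundling protein of smooth muscle and of cells with stress fibres, and a standard target of serum response factor. The brighter of its 2 probes gave 3.25, 3.24, 3.30 and 4.21 in double null colonies, 0.97, 1.81, 2.10 and 0.59 in Bmi1 null colonies, and -0.22, -0.21, 0.18 and 0.54 in WT colonies. The 3 genotypes formed 3 separate ranges, with double null highest and WT lowest. Double null exceeded Bmi1 null 4.38-fold (log2 2.13 ± 0.35, adjusted p = 0.00384). Tagln also rose in double null against WT by 3.43 ± 0.35 (adjusted p = 1.71e-06) and in Bmi1 null against WT by 1.30 ± 0.35 (adjusted p = 0.00397) on the log2 scale.

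The Tagln call between the mutants held in 23 of 24 alternative settings, with log2 fold changes of 0.93 to 2.38. It ended with slide as a fixed block, at 1.76 and an adjusted p of 0.0743. Slide 2 held 1 double null and 1 Bmi1 null array, which differed by 1.49, and slide 4 held 2 double null arrays and 1 Bmi1 null array, which differed by 1.63. Without double null replicate 4, the colony with the highest value, the log2 fold change was 1.90 (adjusted p = 0.00755). The second Tagln probe did not share the pattern, as described with the other probes below.

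Acta2 (chr19:34240336-34255585) encodes smooth muscle actin, the marker of myofibroblasts. Its brightest probe gave 5.89, 6.03, 7.30 and 6.19 in double null colonies, 5.57, 5.70, 6.22 and 6.13 in Bmi1 null colonies, and 4.23, 5.05, 4.61 and 5.15 in WT colonies. Both mutants lay above WT without overlap, and the 2 mutants overlapped each other. The gene rose 3.02-fold in double null against WT (log2 1.59 ± 0.32, adjusted p = 0.00047) and 2.22-fold in Bmi1 null against WT (log2 1.15 ± 0.32, adjusted p = 0.00495). By this probe the rise in Bmi1 null colonies was no longer called in the authors' value table, at 0.29 (adjusted p = 0.222). Nor was it called after quantile normalization, at 0.27 (adjusted p = 0.4). Double null minus Bmi1 null was 0.44 ± 0.32 (95% interval -0.25 to 1.14, adjusted p = 0.473). In the authors' value table the other Acta2 probes had higher means in Bmi1 null than in WT colonies, as given with the probes below. Actin genes are near-identical in their coding sequence, and whether each probe separates Acta2 from its paralogs is unknown.

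**Figure D2:**
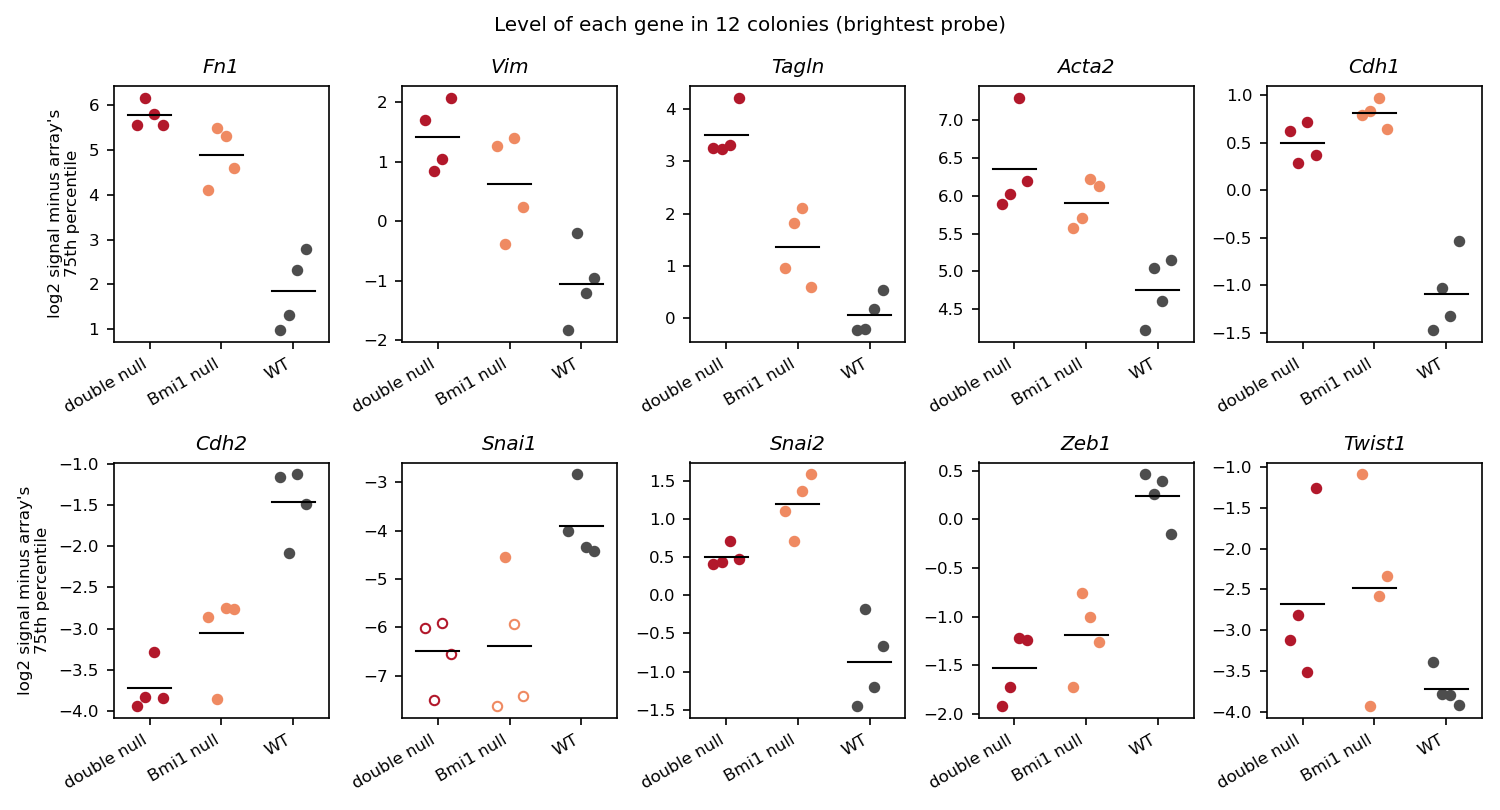
Level (log2 units above the 75th percentile of the array, y axis, a separate scale per gene) of each gene's brightest probe in 4 double null, 4 Bmi1 null and 4 WT colonies; points are colonies, lines are means, and open points were not well above background. Fn1, Tagln and Snai2 do not overlap between the double null and Bmi1 null colonies, though the closest Snai2 colonies are both at 0.71. The other Tagln probe, not shown here, overlaps between them. Snai1 is open in 4 double null and 3 Bmi1 null colonies.

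Cdh1 (chr8:106603350-106670247) encodes E-cadherin, the adhesion molecule of epithelial junctions. Its level was 0.63, 0.29, 0.72 and 0.38 in double null colonies, 0.79, 0.83, 0.98 and 0.64 in Bmi1 null colonies, and -1.47, -1.02, -1.32 and -0.53 in WT colonies. All 8 mutant colonies were above all 4 WT colonies. Cdh1 rose 3.01-fold in double null against WT (log2 1.59 ± 0.22, adjusted p = 2.16e-05) and 3.72-fold in Bmi1 null against WT (log2 1.90 ± 0.22, adjusted p = 5.62e-06). It stayed called in both comparisons under every alternative run, at 1.28 to 2.62 and 1.58 to 2.83. The difference between the mutants was -0.31 ± 0.22 (95% interval -0.78 to 0.17, adjusted p = 0.47), with overlapping colonies.

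Cdh2 (chr18:16588877-16809246) encodes N-cadherin, which replaces E-cadherin in the classical cadherin switch. Its level was -3.94, -3.83, -3.28 and -3.84 in double null colonies, -2.86, -3.85, -2.75 and -2.76 in Bmi1 null colonies, and -1.16, -2.08, -1.12 and -1.48 in WT colonies. Mutant colonies lay below all WT colonies, and Bmi1 null replicate 2 lay inside the double null range. The log2 fold change against WT was -2.26 ± 0.30 in double null (adjusted p = 1.42e-05) and -1.59 ± 0.30 in Bmi1 null colonies (adjusted p = 0.00028), which is 0.86 and 0.35 below the median of all genes. In the authors' value table neither difference was called, at -0.40 (adjusted p = 0.163) for double null and -0.11 (adjusted p = 0.696) for Bmi1 null, and the Bmi1 null call also ended with median scaling, at -0.66 (adjusted p = 0.0779), and with quantile normalization, at -0.43 (adjusted p = 0.294). Double null minus Bmi1 null was -0.67 ± 0.30 (95% interval -1.31 to -0.02, adjusted p = 0.212).

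Snai1 (chr2:167538195-167542814) encodes Snail, a zinc finger repressor of Cdh1. Its probe was not well above background on any double null array or on 3 Bmi1 null arrays, and it was above background on all WT arrays. The measured values were -6.02, -7.50, -5.92 and -6.56 in double null colonies, -7.64, -4.54, -5.93 and -7.41 in Bmi1 null colonies, and -4.02, -2.83, -4.34 and -4.42 in WT colonies. The mutants overlapped each other and lay below WT, and no fold is given between mutants that were mostly not above background.

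As the double null values are only a bound, double null colonies had at least 3.01-fold lower Snai1 than WT colonies, with mean levels of -6.50 ± 0.72 and -3.90 ± 0.74 and an adjusted p of 0.00179. The bound sets the WT mean against the lowest signal well above background on each double null array, or the probe's own value where higher. Its 3.01-fold still includes the shift shared by all genes, whose median log2 difference was -1.41 for double null against WT. In Bmi1 null against WT the log2 fold change was -2.48 ± 0.63 (adjusted p = 0.00258), where 1 Bmi1 null array had it above background, so the size of this difference rests on 3 arrays without a level well above background. With the all-gene median taken off, the measured Snai1 differences from WT were -1.19 in double null and -1.24 in Bmi1 null colonies. These differences rest on the background-subtracted signal. Snai1 was 0.08 and 0.01 higher in double null and Bmi1 null colonies than in WT in the authors' value table, and 0.25 and 0.10 higher with quantile normalization, with adjusted p-values of 0.747 and 0.966 in the table and 0.747 and 0.897 with quantile normalization. With normexp background correction the double null difference was -0.42 (adjusted p = 0.225).

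Snai2 (chr16:14705852-14709395) encodes Slug, the Snail relative of basal epithelium. Its level was 0.40, 0.44, 0.71 and 0.47 in double null colonies, 1.10, 0.71, 1.36 and 1.58 in Bmi1 null colonies, and -1.45, -0.18, -1.20 and -0.66 in WT colonies. All mutant colonies were above all WT colonies, and every Bmi1 null colony was above every double null colony, by the narrowest margin between Bmi1 null replicate 2 and double null replicate 3, both at 0.71. Snai2 rose 2.60-fold in double null against WT (log2 1.38 ± 0.28, adjusted p = 0.000501) and 4.17-fold in Bmi1 null against WT (log2 2.06 ± 0.28, adjusted p = 2.06e-05). Both calls held under every alternative run. In double null relative to Bmi1 null colonies it was -0.68 ± 0.28 (95% interval -1.29 to -0.08, adjusted p = 0.172), without a call.

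Zeb1 (chr18:5591327-5775468) encodes a zinc finger homeobox repressor of epithelial genes. Its level was -1.92, -1.72, -1.22 and -1.24 in double null colonies, -1.73, -0.76, -1.01 and -1.26 in Bmi1 null colonies, and 0.46, 0.26, 0.39 and -0.15 in WT colonies. Every mutant colony was below every WT colony. The log2 fold change was -1.77 ± 0.26 in double null against WT (adjusted p = 2.98e-05) and -1.43 ± 0.26 in Bmi1 null against WT (adjusted p = 0.000191). Set against the median of all genes, these were only -0.37 and -0.19, and with median scaling they were -0.74 (adjusted p = 0.0204) and -0.50 (adjusted p = 0.102), the second no longer a call. In the authors' value table, where the median of all genes was -0.07 and -0.09, they were -1.83 (adjusted p = 2.22e-05) and -1.55 (adjusted p = 0.000102). Double null minus Bmi1 null was -0.34 ± 0.26 (95% interval -0.89 to 0.21, adjusted p = 0.493).

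Twist1 (chr12:33957671-33959831) encodes a helix-loop-helix factor of cranial mesenchyme. Its level was -3.12, -2.81, -3.52 and -1.26 in double null colonies, -1.09, -3.93, -2.58 and -2.33 in Bmi1 null colonies, and -3.38, -3.78, -3.79 and -3.92 in WT colonies. The WT colonies lay within 0.53 of each other, while the double null colonies spanned 2.25 and the Bmi1 null colonies 2.84, and each mutant overlapped WT. The log2 fold change was 1.04 ± 0.55 in double null against WT (95% interval -0.15 to 2.24, adjusted p = 0.0929) and 1.23 ± 0.55 in Bmi1 null against WT (95% interval 0.04 to 2.43, adjusted p = 0.0524), neither of them a call. Both became calls in the authors' value table, at 1.55 (adjusted p = 0.00287) and 1.63 (adjusted p = 0.00205), with median scaling, at 2.07 (adjusted p = 0.00552) and 2.17 (adjusted p = 0.00423), and after quantile normalization, at 3.46 (adjusted p = 3.58e-05) and 3.53 (adjusted p = 3.05e-05).

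Single colonies also decided the Twist1 call. Without Bmi1 null replicate 2 it was called in Bmi1 null against WT at 1.72 (adjusted p = 0.00623) and in double null against WT at 1.04 (adjusted p = 0.0475). Without double null replicate 3 or 4 the Bmi1 null value of 1.23 had an adjusted p of 0.0496 or 0.0259, and without replicate 4 the double null value was 0.57 (adjusted p = 0.298). The difference between double null and Bmi1 null colonies was -0.19 ± 0.55 (95% interval -1.39 to 1.0, adjusted p = 0.887).

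The 3 genes with several probes were examined probe by probe in a fit over all probes. The 3 Fn1 probes ran the same way. The probe A_51_P100856 gave 5.06, 5.23, 5.50 and 4.89 in double null colonies, 3.41, 4.61, 4.36 and 3.66 in Bmi1 null colonies, and 0.03, 0.74, 1.25 and 2.31 in WT colonies, with log2 fold changes against WT of 4.09 in double null (adjusted p = 1.96e-06) and 2.93 in Bmi1 null (adjusted p = 3.36e-05). The probe A_52_P11817 had smaller differences, 2.60 (adjusted p = 9.29e-05) and 1.47 (adjusted p = 0.00639), and its Bmi1 null colonies split into 4.13 and 4.09 for replicates 2 and 3 and 2.27 and 2.34 for replicates 1 and 4. Between the mutants these probes gave 1.16 (adjusted p = 0.115) and 1.14 (adjusted p = 0.129), again without a call.

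The 2 Tagln probes disagreed. The probe A_51_P450527 gave -0.95, 0.07, -0.53 and -0.62 in double null colonies, -0.40, -0.37, -0.32 and 0.17 in Bmi1 null colonies, and 1.97, 0.98, 1.91 and 1.58 in WT colonies. Here all 8 mutant colonies lay below all WT colonies, the opposite of the brighter probe. Its log2 fold change was -2.12 ± 0.27 in double null against WT (adjusted p = 1.22e-05) and -1.84 ± 0.27 in Bmi1 null against WT (adjusted p = 4.38e-05), or -1.05 and -0.92 relative to the median of all probes. Between the mutants it was -0.28 ± 0.27 (adjusted p = 0.606). With the mean of both probes in place of the brighter one, Bmi1 null minus WT turned to -0.27 (adjusted p = 0.267), double null minus WT was 0.65 (adjusted p = 0.0153), and double null minus Bmi1 null was 0.93 (adjusted p = 0.0243). The array design assigns both probes to the same transcript, and their places in the transcript are unknown, so which of them follows Tagln mRNA cannot be told apart with these files.

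The 3 Acta2 probes agreed in sign and differed in size. The probe A_52_P420504 gave 2.5, 2.72, 3.27 and 3.0 in double null colonies, 0.64, 1.94, 2.82 and 1.63 in Bmi1 null colonies, and -0.41, 0.19, 0.13 and 0.37 in WT colonies, and rose by 2.80 (adjusted p = 1.87e-05) and 1.69 (adjusted p = 0.00115) in double null and Bmi1 null against WT. The probe A_52_P210078 gave -1.79, -1.74, -1.70 and -1.68 in double null colonies, -3.52, -2.32, -1.90 and -2.23 in Bmi1 null colonies, and -2.51, -2.67, -2.50 and -2.89 in WT colonies. It rose in double null against WT by 0.91 (adjusted p = 0.00998), and Bmi1 null minus WT was 0.15 (adjusted p = 0.641). Between the mutants the differences of these probes were 1.12 (adjusted p = 0.0948) and 0.77 (adjusted p = 0.13), neither called. In the authors' value table the mean of A_52_P420504 was 10.55 in Bmi1 null and 9.07 in WT colonies. That of A_52_P210078 was 7.07 and 6.06. Neither probe was tested in that table.

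**Figure D3:**
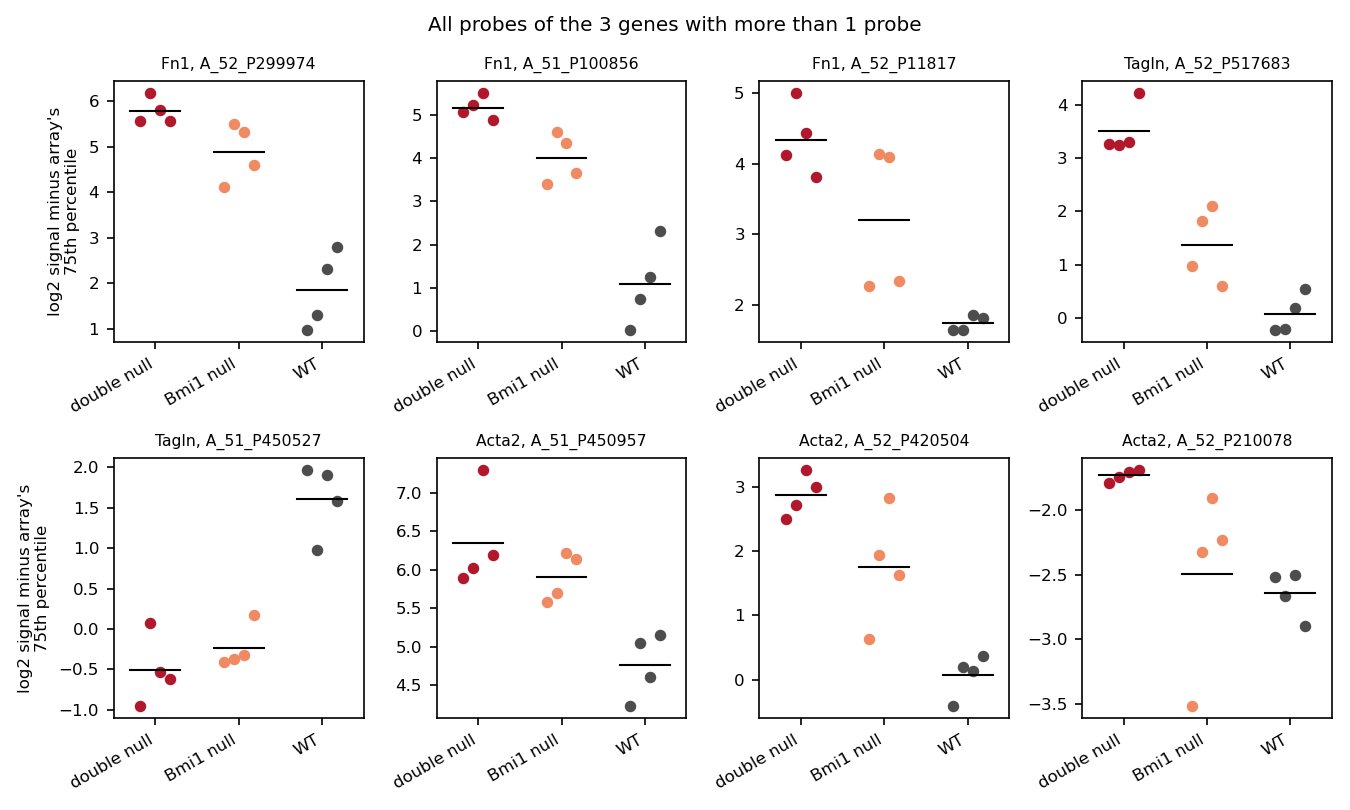
Level (log2 units above the 75th percentile of the array, y axis, a separate scale per probe) of the 8 probes of Fn1, Tagln and Acta2 in 4 double null, 4 Bmi1 null and 4 WT colonies; points are colonies and lines are means. Tagln probe A_51_P450527 has its WT colonies on top, at 0.98 to 1.97, while the other probe of the gene has them at the bottom, at -0.22 to 0.54.

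Repeated spots show the spread of single measurements within an array. Fn1 probe A_51_P100856, Acta2 probe A_52_P420504 and the Cdh1 probe were each printed in 10 spots per array. The SD between the 10 spots had a median over the 12 arrays of 0.10 for both Fn1 and Acta2 and 0.11 for Cdh1. The SD between colonies of the Fn1 probe was 0.26 in double null, 0.57 in Bmi1 null and 0.96 in WT colonies, and that of the Acta2 probe was 0.33, 0.90 and 0.34. For Cdh1 it was 0.21, 0.14 and 0.41. Each colony SD was above the median spot SD of its probe. For Acta2 each was also above the highest spot SD of any array, 0.19. The highest spot SD was 0.36 for Fn1, above its double null colony SD. For Cdh1 it was 0.31, above the double null and Bmi1 null colony SDs. A level averages the spots of a probe, so its error from spots is smaller than the SD of single spots. Repeat spots measure the error of the array alone.

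Double null replicate 4 stood apart in markers of mesenchyme. It had the highest Tagln (4.21), Vim (2.08) and Twist1 (-1.26) of the double null colonies. These were 3 of the 10 genes, and double null replicate 3 was the highest for 6 others. The summed linear level of 10 markers of dental mesenchyme and fibroblasts was 36.0 in replicate 4 and 3.14 to 7.57 in the other double null colonies. It was 3.81 to 7.28 in the Bmi1 null colonies and 11.6 to 13.8 in the WT colonies. Most of the sum in replicate 4 came from the 2 genes Col1a1, at a level of 3.54, and Col1a2. Col1a2, a chain of type I collagen, was at 4.13 in replicate 4, against -0.84 to 1.31 in the other double null colonies and -2.04 to -0.87 in the Bmi1 null colonies. Prrx1, a mesenchymal homeobox factor, was at 1.13 in it and at -3.03 to -1.35 and -3.24 to -1.82 in those colonies. Of the 10 markers 9 were well above background in replicate 4, and Lum, a matrix proteoglycan, was not. Without replicate 4, Vim still rose in double null against WT, by 2.25 on the log2 scale (adjusted p = 0.000863), and Tagln by 3.19 (adjusted p = 6.43e-06), while Twist1 was at 0.57 (adjusted p = 0.298). The part of mesenchymal cells in the Tagln, Vim and Twist1 values was not tested.

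**Figure D4:**
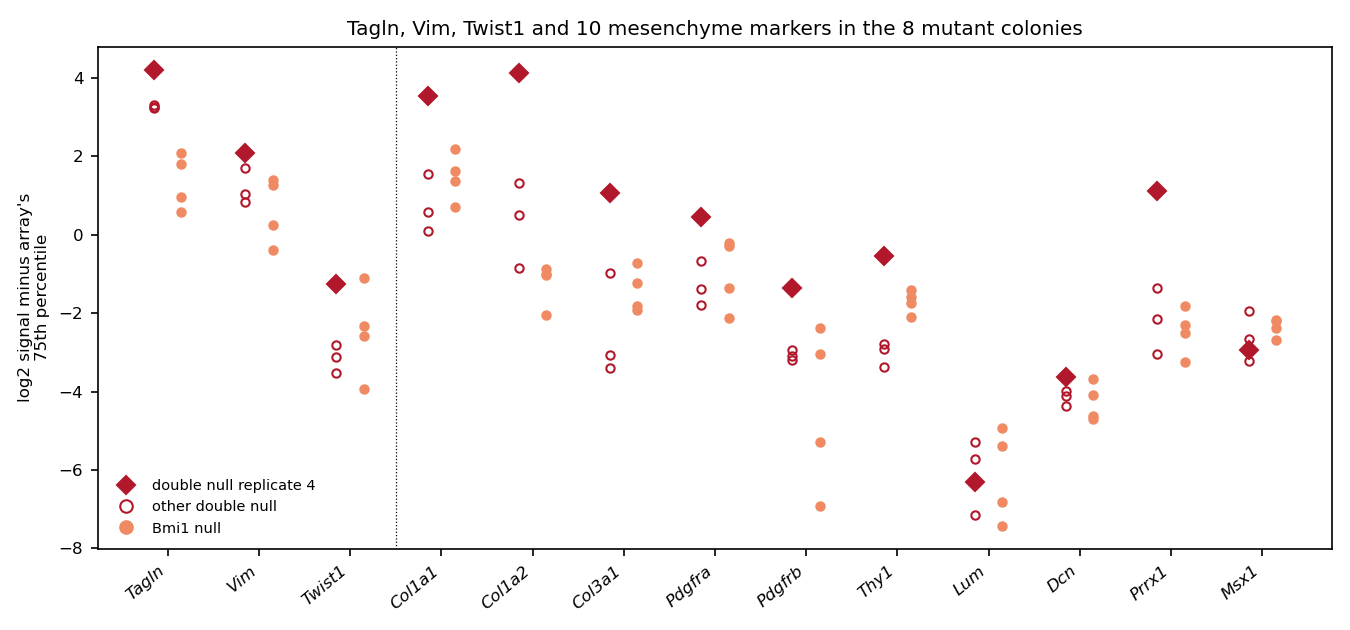
Level (log2 units above the 75th percentile of the array, y axis) of Tagln, Vim, Twist1 and, right of the dotted line, 10 mesenchyme markers in 4 double null colonies (left in each pair, replicate 4 as diamonds) and 4 Bmi1 null colonies (right, filled circles). Replicate 4 is at 4.13 for Col1a2 and 1.13 for Prrx1, while its Lum, Dcn and Msx1 lie near or within the range of the other colonies.

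Markers of other cell types are given beside the lower Cdh2, Snai1 and Zeb1. Of the mesenchyme markers 6 of 10 were lower in double null and 7 of 10 in Bmi1 null against WT, and none was higher (medians -1.83 and -1.85), which is near the 59.9% and 58.3% of all genes called lower. The 5 endothelial, 4 immune and 5 glial and melanocyte markers tested were all called lower in both mutants, with some calls lost under other settings. Tyr was not called in the authors' value table or after quantile normalization, nor in double null colonies with normexp. In Bmi1 null colonies Tek was not called in the authors' value table, at -0.44 (adjusted p = 0.156), nor Mitf with median scaling, at -0.73 (adjusted p = 0.0846). Their summed linear levels were 0.34 to 0.80 in double null, 0.32 to 0.52 in Bmi1 null and 1.90 to 2.22 in WT colonies for endothelium, 0.21 to 0.62, 0.24 to 0.37 and 5.02 to 6.29 for immune cells, and 1.72 to 2.95, 2.29 to 3.24 and 8.10 to 9.48 for glia and melanocytes. Of the pericyte and smooth muscle markers 4 of 6 were lower in double null and 5 of 6 in Bmi1 null against WT. The median of this list relative to that of all genes was only -0.18 and -0.69. Mcam was higher in each, although in double null colonies it was not called with the mean of its probes, in the authors' value table or after quantile normalization. The summed level of these 6 was 25.8 to 52.1 in double null, 57.4 to 77.1 in Bmi1 null and 18.3 to 29.2 in WT colonies. It was highest in Bmi1 null colonies, but most of it in the mutants came from Mcam. The mean log2 level of Mcam was 5.08 in double null, 5.96 in Bmi1 null and 3.77 in WT colonies. The sum therefore follows 1 gene and not the list. The part of such cells in the members' differences from WT was not tested. Between the mutants 0 genes of these 5 lists were called by limma, and at an unadjusted p under 0.05 the mesenchyme list had 2 higher, the pericyte list 1 higher and 1 lower, and the endothelial list 1 higher and 1 lower.

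The epithelial side was higher with Cdh1. Of the 14 catenins and junction partners tested, 13 were higher in double null and 12 in Bmi1 null against WT, and none was lower, with list medians of 1.88 and 1.59 beside -1.41 and -1.24 over all genes. Jup, the gene of plakoglobin, was higher by 2.64 (adjusted p = 7.12e-07) and 2.61 (adjusted p = 9.09e-07). Of the dental epithelial markers 7 of 9 were higher in each mutant against WT, with Trp63, the master regulator of stratified epithelium, at 2.63 (adjusted p = 1.87e-07) and 2.57 (adjusted p = 2.5e-07), and the summed level of the 9 was 378 to 798 in double null, 428 to 606 in Bmi1 null and 124 to 398 in WT colonies. Of 19 regulators of epithelial identity 10 were higher and 5 lower in double null, and 9 higher and 6 lower in Bmi1 null against WT (medians 0.50 and 0.62). The 5 lower in double null colonies were Ovol2, Foxa1, Foxa2, Gata3 and Cdx2. Of 11 intermediate filament genes 6 were higher in each, with Krt7, Nes and Des lower in double null and Nes and Des in Bmi1 null (medians 1.30 and 1.16). Among 11 other cadherins 9 were lower in each mutant (medians -2.33 and -2.42), and Cdh3, the P-cadherin of basal epithelium, was higher, by 1.37 (adjusted p = 5.79e-05) in double null and 1.99 (adjusted p = 2.85e-06) in Bmi1 null colonies.

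The partners of the matrix and contractile members were mixed. Of 23 contractile genes and targets of serum response factor 15 were higher in each mutant against WT, with 5 lower in double null and 7 lower in Bmi1 null (medians 1.31 and 1.14). The 5 were the muscle and smooth muscle genes Cnn1, Myocd, Des and Myh11, and Tagln3. Tagln2, a transgelin paralog, was higher by 2.94 (adjusted p = 1.04e-06) and 2.43 (adjusted p = 5.53e-06), and Tpm1, a tropomyosin, by 2.63 (adjusted p = 3.71e-07) and 2.30 (adjusted p = 1.22e-06). Of 11 fibronectin receptor genes 8 were higher in each mutant, with Itga4 lower in double null and Itga4 and Itgb3 in Bmi1 null (medians 1.42 and 1.19). Of 20 genes of mesenchymal matrix 5 were higher and 7 lower in double null against WT (median -0.38). In Bmi1 null against WT 4 were higher and 8 lower (median -0.88). The counts of higher genes are near the 25.5% and 25.2% of all genes called higher in double null and Bmi1 null. Those of lower genes are below the 59.9% and 58.3% of all genes. Col6a1, Col6a2, Sparc, Tnc and Fstl1 were the 5 higher in double null, and Col5a2, Col6a1, Sparc and Tnc the 4 higher in Bmi1 null. The lower ones included Dcn, the proteoglycan decorin, at -2.56 (adjusted p = 1.03e-06) and -2.81 (adjusted p = 5.7e-07).

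Upstream of the program, 12 of the 22 TGF-beta pathway genes were higher and 6 lower in double null, and 11 higher and 5 lower in Bmi1 null against WT (medians 0.65 and 0.45). The 5 were Tgfbr3, Ltbp2, Ltbp3, Eng and Tgfbi. Ltbp1, which binds latent TGF-beta in the matrix, was higher by 2.19 (adjusted p = 2.8e-06) and 3.43 (adjusted p = 9.38e-08). Of 20 other transcription factors of the transition 5 were higher and 12 lower in double null against WT (median -1.25). In Bmi1 null against WT 4 were higher and 13 lower (median -0.98). These counts are near those of all genes, of which 25.5% were higher and 59.9% lower in double null (median -1.41). The shares of all genes in Bmi1 null were 25.2% and 58.3% (median -1.24). Tcf4, Foxc1, Sox9 and Nfib were higher in both, and Foxc2 in double null colonies. Genes of these small counts that have no value here were named after their values were seen. Nfib, a nuclear factor I gene, was higher by 2.97 (adjusted p = 1.05e-06) and 2.33 (adjusted p = 8.46e-06).

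Between the mutants few genes of these lists passed, where 7.56% of all genes were called. The list medians, marker lists included, lay between -0.30 and 0.35 beside -0.07 over all genes. Of the fibronectin receptors 2 were higher and 1 lower in double null against Bmi1 null colonies. Itga5 was also higher, at 0.74 (adjusted p = 0.0427), and Itga8 lower, at -1.48 (adjusted p = 0.0363), both of them alpha subunits of fibronectin receptors. These calls held in 10 of 24 alternatives for Itga5 and 8 of 24 for Itga8, and with slide as a fixed block the adjusted p was 0.293 and 0.236. Itgb3, a beta subunit of such receptors, had a mean level of -1.52 in double null and -4.24 in Bmi1 null colonies (log2 fold change 2.72 ± 0.36, adjusted p = 0.0013) and was called in all 23 alternatives run for it. Itgb3 was well above background on 4 double null and 3 Bmi1 null arrays. Of the contractile genes 4 were higher and none lower, with Ccn2, a matricellular target of serum response factor and YAP, at 1.76 ± 0.30 (adjusted p = 0.0046) and Smtn, the stress fibre protein smoothelin, at 1.41 ± 0.28 (adjusted p = 0.00959). Cnn2, a calponin, was at 1.18 (adjusted p = 0.0392) and Srf, the gene of serum response factor itself, at 0.70 (adjusted p = 0.0274), Srf being named after its value was seen. The Cnn2 call held in 13 of 24 alternatives. Smtn was not called with slide as a fixed block (adjusted p = 0.0828), with a replicate block (adjusted p = 0.0532) or in the authors' value table (adjusted p = 0.0787).

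Of the TGF-beta pathway 2 genes were higher and 3 lower in double null against Bmi1 null colonies. The ligand Tgfb2 was at -1.72 ± 0.31 (adjusted p = 0.00607), while Tgfbi, a target that TGF-beta induces, was at 1.45 ± 0.30 (adjusted p = 0.0117). Also called, and named after their values were seen, were Ltbp3, higher by 1.02 (adjusted p = 0.00489), and Ltbp1, at -1.24 (adjusted p = 0.00806). With normexp background correction the Tgfb2 value was -0.31 (adjusted p = 0.456), and with slide as a fixed block neither Tgfb2 (adjusted p = 0.0575) nor Tgfbi (adjusted p = 0.105) was called. The matrix list had 2 higher and none lower, Fbn1, which 2 Bmi1 null arrays did not have well above background, at 2.51 ± 0.59 (adjusted p = 0.0224) and Fstl1 at 2.03 ± 0.45 (adjusted p = 0.0168), and both missed the threshold with slide as a fixed block (adjusted p = 0.27 and 0.157). Without double null replicate 3 they also missed it (adjusted p = 0.055 and 0.053), and the Fbn1 call held in 16 of 23 alternatives. Among the cadherins Cdh13 was lower, at -1.43 ± 0.21 (adjusted p = 0.00242).

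On the epithelial side, Epcam, an epithelial adhesion molecule, exceeded its Bmi1 null level in double null colonies by 1.72 ± 0.34 (adjusted p = 0.00968), as 1 of 9 dental epithelial markers. Krt7, a simple keratin, was lower by 2.09 on the log2 scale (adjusted p = 0.00465), as 1 of 11 intermediate filament genes. Of the epithelial regulators Prom2 was lower at -1.45 (adjusted p = 0.0176). The only junction gene called was Ctnnb1, the gene of beta-catenin, at 0.78 (adjusted p = 0.0321), and of the 20 other transcription factors Zeb2 was at 0.90 (adjusted p = 0.023) and Foxc2 at 0.98 (adjusted p = 0.0429). The Ctnnb1 call held in 13 of 24 alternatives, that of Zeb2 in 17, that of Foxc2 in 9 and that of Prom2 in 21, with adjusted p-values of 0.0918, 0.166, 0.22 and 0.171 with slide as a fixed block. Cdh13, Ccn2, Krt7 and Epcam were each called in 23 of 24 alternatives and missed the threshold with slide as a fixed block, at adjusted p-values of 0.0611, 0.0525, 0.073 and 0.0694.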

How the data were processed

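Per the labels' protocols, colony RNA went through whole transcriptome amplification and Cy3 labelling before hybridisation to Agilent mouse arrays. The deposited scanner files hold spot intensity from Feature Extraction 10.7.3.1, per the file headers, whose processed signal is background-subtracted. The headers name mm9, and gene positions and promoters here are RefSeq's GRCm38.p6. The authors' value table, as deposited, is on a log2 scale with array medians of 7.21 to 7.24. No source used here states its further normalization.

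The 45018 spots per array included 43379 non-control spots, none saturated. Outlier-marked spots were left out. Accessions matched RefSeq without versions for 24844 of 41174 probes. A probe was kept if well above background on at least 3 of 4 arrays of a genotype (39338 probes), and all 10 genes passed. limma 3.58.1 in R 4.3.3 fitted 1 mean per genotype over 12 arrays (9 residual degrees of freedom), with a second fit over every kept probe, and was tested on simulated data. The design named a mean signal column for normexp (offset 50), and the files used hold a median signal, which took its place. No 2 arrays were duplicates (highest correlation 0.988). Genes beside the 10 are Bmi1 and Cdkn2a, up to 3 called genes per list and comparison with the largest change relative to the median of all genes, and defining markers. Alternatives were other scalings, background, filters, probe rules, blocks and arrays left out. The 10 genes and the lists were chosen with earlier results of these data known. Same-numbered colonies correlated at -0.14 to 0.22, other pairs at -0.23 to 0.22, so the numbers were not taken as pairs. Some genes that the lists count are not reported here by name.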

Additional observations from a re-analysis of the deposited data

Results flagged for a closer look

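In 4 of the 45 groups of 4 arrays examined (15 probes in 3 genotypes), 1 colony lay far from the others of its genotype by Dixon's criterion, and chance flags about 1 in 20 groups. The brighter Tagln probe was at 4.21 in double null replicate 4, with the nearest double null colony at 3.30. The other Tagln probe, A_51_P450527, was at 0.17 in Bmi1 null replicate 4, with the nearest Bmi1 null colony at -0.32. Cdh2 was at -3.28 in double null replicate 3, with the nearest double null colony at -3.83. Cdh2 was also at -3.85 in Bmi1 null replicate 2, with the nearest Bmi1 null colony at -2.86.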

How the results depend on the processing

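Against WT, the count of higher members stayed at 6 or 7 in double null and between 5 and 7 in Bmi1 null colonies under the alternatives run. The count of lower members, 3 in each mutant, was 1 in the authors' value table for double null and 2 with quantile normalization and with normexp, where Snai1 lost its call, and 1 in that table, with median scaling and with quantile normalization for Bmi1 null. It was 2 in each with the filter on all 12 arrays, which leaves Snai1 untested. Signs turned for Snai1 with quantile normalization (0.25 in double null, 0.10 in Bmi1 null) and in the authors' value table (0.08 and 0.0109), for Tagln in Bmi1 null with the mean of its probes (-0.27), and in Bmi1 null within slide 2 for Vim (-0.19) and for Twist1 (-0.16), which was no call. In the authors' value table Tyr turned to 0.0312 in double null and 0.0035 in Bmi1 null, and Rgs5 in Bmi1 null to 0.15, or 0.36 with quantile normalization. Between the mutants, 1 member was higher, and 0 with slide as a fixed block (limma, 1 at an unadjusted p under 0.05). The 2347 genes called there became 1367 with quantile normalization, 1461 with normexp, 295 with slide as a fixed block and 969 with only the 2 genotypes fitted. With the replicate number as a block they became 1392, and the block changed no member's call. The cause of these changes was not tested.

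Leaving out each array in turn gave 6 to 7 members higher and 3 lower in each mutant against WT, with 25600 to 26644 genes called in double null and 24819 to 26083 in Bmi1 null. Between the mutants it gave 1 higher, 0 lower and 1432 to 2700 genes, the lowest without double null replicate 3 and 1506 without Bmi1 null replicate 4. The alternatives for list genes were added after seeing the data, and 39 of 44 list genes named in double null against WT, 37 of 43 in Bmi1 null against WT and 1 of 19 between the mutants were called in every one. Signal near background limits Snai1 in both mutants.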
